A study of Mus musculus with 20 samples.

Results

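The miR-135 family was followed through chemically induced skin cancer in the mouse, with miR-135b-5p at its centre. Its members were chosen by name, as every miRNA entry of the count table that begins miR-135a or miR-135b, and there were 5 of them among 1137 mature miRNAs (2127 small RNA features in all). They are mmu-miR-135b-5p, mmu-miR-135b-3p, mmu-miR-135a-5p, mmu-miR-135a-1-3p and mmu-miR-135a-2-3p, written without the species prefix where the meaning is plain. The family was singled out because miR-135b-5p stood far higher in carcinomas than in healthy skin, so its carcinoma values are given as a description, with no test.

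The 20 small RNA libraries were made from FVB/N mouse skin (an albino inbred strain) and fall into 4 groups of 5. Healthy skin had been treated with acetone alone. Hyperplastic skin (thickened, with no tumour), papillomas, which are benign, and malignant cutaneous squamous cell carcinomas (cSCC) came from mice given DMBA, a mutagen, and PMA, a phorbol ester that promotes tumour growth. The healthy skin thus lacks the treatment as well as the lesion, and the pair cannot be told apart in a comparison with it; hyperplastic skin shares the treatment with both tumours. The labels call the samples biopsies and do not say whether each came from its own animal, and a p-value here covers the spread among these samples only. Libraries are named by their group and their number in the labels.

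miRNAs are short RNAs that guide Argonaute proteins to messenger RNAs, chiefly through the seed, the stretch near the 5′ end that pairs with the target. Each hairpin precursor can yield an RNA from either side, the 5p and the 3p arm, of which one is usually kept and the other degraded. The miR-135 family is known for restraining APC, the brake on Wnt signalling, in colorectal tumours, and miR-135b has been reported raised in human squamous and other carcinomas.

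The sequences below show why the members are near copies, and where they differ. RefSeq (GRCm38.p6) matched 4 of the 5 members, all but miR-135b-5p. In the mature miRNAs, capitals mark the seed (bases 2 to 8), from which the arms can be grouped.
miR-135a-5p: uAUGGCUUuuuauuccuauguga
miR-135b-3p: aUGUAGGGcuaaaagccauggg
miR-135a-1-3p: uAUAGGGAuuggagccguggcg
miR-135a-2-3p: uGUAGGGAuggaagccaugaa

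No 2 of these 4 seeds were the same, and no other of the 1679 mature miRNA names in the RefSeq table carried one of them. That search could not include miR-135b-5p, which has no mature entry there, although its hairpin holds the seed of miR-135a-5p. The 3 hairpins are printed next because they hold what the 5p sides share. Capitals mark AUGGCUU, the seed of miR-135a-5p, which was searched on the hairpin strand and occurred once in each.
Mir135b: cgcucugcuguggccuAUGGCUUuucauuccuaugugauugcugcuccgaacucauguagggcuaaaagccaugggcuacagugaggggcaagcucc
Mir135a-1: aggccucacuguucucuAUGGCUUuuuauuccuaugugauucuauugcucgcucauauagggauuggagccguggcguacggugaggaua
Mir135a-2: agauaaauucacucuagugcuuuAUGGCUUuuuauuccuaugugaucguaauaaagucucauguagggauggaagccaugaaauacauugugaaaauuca

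The 23 bases of miR-135a-5p were found unaltered in both Mir135a hairpins. The most similar stretch of the Mir135b hairpin differed from them at 1 base, U11C, counted from 1 at the 5′ end of miR-135a-5p. The 2 copies of the miR-135a gene thus give the same 5p RNA, whereas their 3p arms differ and can be counted apart. How reads that fit several miRNAs were assigned is not given in the sources used here.

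The count table places miR-135b-5p on chromosome 1 (mm9, 134094679 to 134094703) and miR-135b-3p beside it (134094718 to 134094741). It lists miR-135a-5p at the chromosome 10 copy (91534885 to 91534909) next to miR-135a-2-3p (91534848 to 91534870), and miR-135a-1-3p on chromosome 9 (106056509 to 106056532). In GENCODE M21 (GRCm38) the Mir135b gene lies in an intron of both spanning transcripts of Lemd1 and of the single one of AC124108.1, protein-coding genes on the same strand. Mir135a-2 lies in an intron of the long noncoding RNA Rmst, and Mir135a-1 in an intron of the antisense RNA D030055H07Rik and, on the opposite strand, over an exon of the metabolic enzyme gene Glyctk. The nearest other mature miRNA of the table, miR-1231-3p, was 3.26 megabases from miR-135b-5p, so no neighbouring miRNA shares its locus.

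Total counts per library ran from 1270588 to 10117810, lower in every tumour library than in every skin library, and mature miRNA counts from 1060615 to 6904298. Levels below are CPM, the usual read counts per fixed number of reads, with library sizes scaled by TMM (a trimmed mean of fold changes) on the 850 miRNAs that passed the low-count filter. Of the 5 members, 3 passed it (miR-135b-5p, miR-135b-3p and miR-135a-5p). The 590 miRNAs with at most 20 counts on average summed to about the same number in deep and shallow libraries (means of 3698 in healthy skin and 4649 in papilloma). When only the 294 miRNAs that averaged 50 CPM or more, called abundant here, were fitted and scaled, fold changes moved up by a median log2 of 0.66 for papilloma and 0.72 for cSCC against healthy skin. Against hyperplastic skin the shifts were 0.57 and 0.63, while they were 0.09 for hyperplastic against healthy skin and 0.06 for cSCC against papilloma. Values under this second scaling are given as those among abundant miRNAs.

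miR-135b-5p was a minor miRNA in skin without tumours and one of the more abundant in carcinoma. In healthy skin mmu-miR-135b-5p stood at 21.9, 22.8, 13.7, 38.9 and 25.9 CPM in libraries 2, 3, 4, 5 and 7, from 39 to 122 reads. In hyperplastic skin it stood at 9.52, 13.4, 15.2, 21.7 and 27.5 CPM in libraries 1, 2, 5, 7 and 8, from 33 to 115 reads. The ranges of these groups overlapped, and hyperplastic 1 and 2 were below every healthy library.

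In papillomas the values spread out: 45.1, 18.4, 238.1, 140.1 and 115.1 CPM in libraries 1, 3, 4, 5 and 6. Of these, 4 of 5 were above the highest healthy and the highest hyperplastic library, and papilloma 3 was inside both ranges. In cSCC it reached 1408, 746, 417.9, 3081 and 351.5 CPM in libraries 1, 2, 3, 4 and 6, from 719 to 6887 reads. The lowest carcinoma was above the highest papilloma, so cSCC overlapped with no other group.

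**Figure D1:**
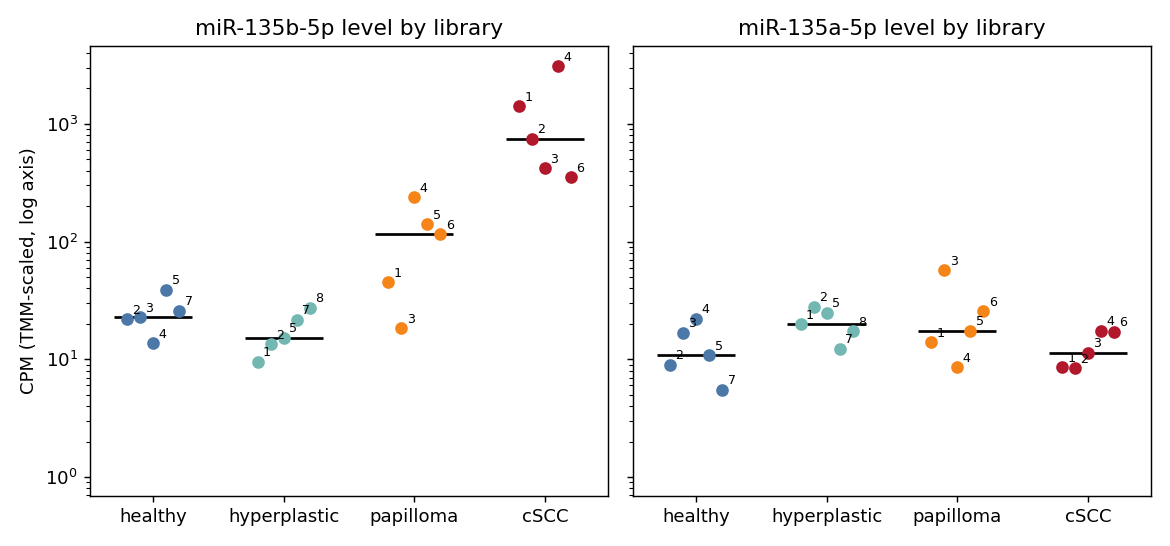
Levels of miR-135b-5p (left) and miR-135a-5p (right) in the 20 libraries, as TMM-scaled CPM on a log axis, by group; points are libraries with their number, bars are group medians. miR-135b-5p reached 351.5 to 3081 CPM in cSCC, whereas miR-135a-5p stayed between 5.52 and 57.1 CPM in all groups.

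By group mean, the order was hyperplastic skin (17.5 ± 7.14 CPM), healthy skin (24.6 ± 9.16), papilloma (111.3 ± 86.5) and cSCC (1201 ± 1130; SD, n = 5 each). Ranked by mean level among the 850 miRNAs tested, miR-135b-5p was number 397 in hyperplastic skin, 350 in healthy skin, 212 in papilloma and 68 in cSCC. The first neighbours in this order, hyperplastic and healthy skin, did not differ beyond their spread. The log2 fold change was -0.50 ± 0.55 (SE, adjusted p = 0.803, edgeR quasi-likelihood test). In that comparison 0% of 850 miRNAs passed, with 75 at an unadjusted p under 0.05 and 0 called by DESeq2 as well.

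Between skin and papilloma the difference passed the test, although the libraries of the groups overlapped. Against hyperplastic skin, which had the same treatment, miR-135b-5p rose in papilloma by a log2 of 2.67 ± 0.58 (SE, adjusted p = 0.00146, edgeR), or 3.39 among abundant miRNAs. Against healthy skin it rose by 2.17 ± 0.56 (adjusted p = 0.00395), or 2.97. Both comparisons use the same 5 papillomas, and the second shares its healthy libraries with the contrast for which the miRNA was singled out.

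The rise rested more on some papillomas than on others. Without papilloma 4 the log2 fold change against hyperplastic skin was 2.12 (adjusted p = 0.00922) and against healthy skin 1.5 (adjusted p = 0.0405). Without papilloma 3, the library that was inside the healthy range, the values were 2.92 and 2.42.

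A call in these comparisons was common: 21.3% of all 850 miRNAs were called higher in papilloma than in hyperplastic skin, and 24% higher than in healthy skin.

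The carcinoma values follow as a description. miR-135b-5p was higher in cSCC than in healthy skin by a log2 of 5.60 ± 0.65 (SE) and than in hyperplastic skin by 6.10 ± 0.67. Against papilloma it was higher by 3.43 ± 0.59, and there both scalings gave like values (3.30 among abundant miRNAs). The values against healthy and hyperplastic skin were 6.28 and 6.69 among abundant miRNAs.

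All 5 carcinomas were above every library of the other groups. In the share of all 850 miRNAs whose libraries did not overlap, this was so for 29.5% between cSCC and healthy skin, 28.4% between cSCC and hyperplastic skin and 6% between cSCC and papilloma. The library with the most weight was cSCC 4: without it the log2 differences were 4.77 from healthy skin, 5.25 from hyperplastic skin and 2.83 from papilloma. No miRNA with at least 50 CPM in 1 of the 2 groups had a larger increase in cSCC over healthy skin. The next by increase were miR-147-3p, known from macrophages stimulated through Toll-like receptors, at 3.60, and miR-31-3p, at 3.55. Some decreases were larger than these, such as that of miR-204-5p (-4.01, or -3.27 among abundant miRNAs).

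**Figure D2:**
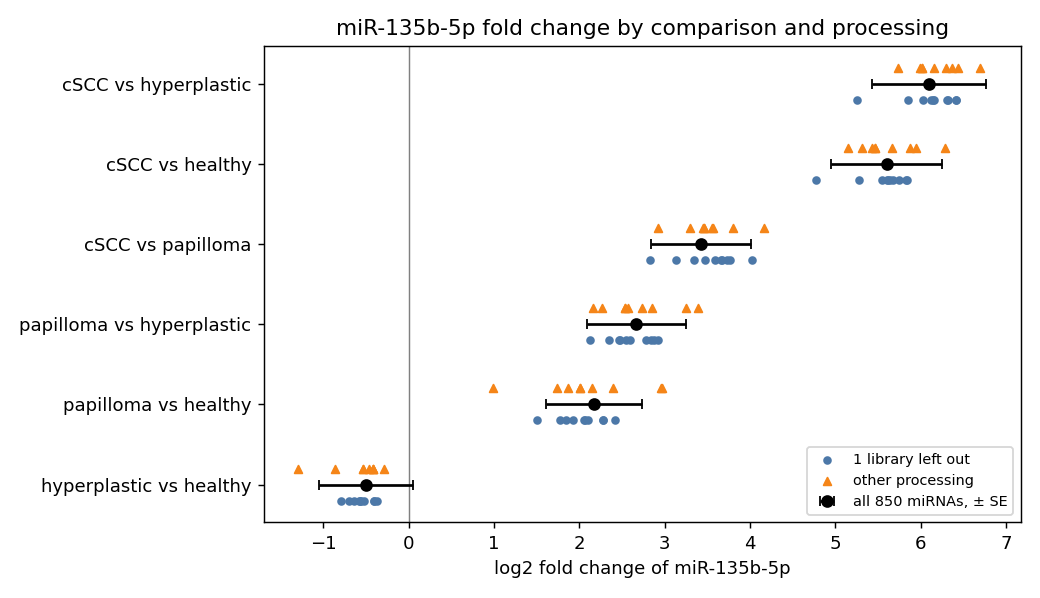
log2 fold change of miR-135b-5p (horizontal axis) in the 6 comparisons: black points with SE bars are the fit of 850 miRNAs, blue points the fits with 1 library left out, orange triangles the other normalizations, filters, designs and DESeq2. The 3 comparisons with cSCC are descriptive, and every setting shown kept its side of 0.

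The carcinomas and papillomas also differed among themselves more than for most miRNAs. The SD of the log2 level of miR-135b-5p was 1.45 over the 5 papillomas and 1.29 over the 5 carcinomas, against 0.52 in healthy and 0.58 in hyperplastic skin. The median SD of the 294 abundant miRNAs was 0.41 in papilloma and 0.51 in cSCC, and that of miR-135b-5p was at percentile 99 and 96.9 of them. From the lowest to the highest, papillomas ran from 18.4 to 238.1 CPM and carcinomas from 351.5 to 3081 CPM.

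Since scaling moves the values, the reads of miR-135b-5p were also set against those of miR-205-5p, abundant in keratinocytes and other stratified epithelium, in the same library, which needs no scaling. This measure was chosen after the values were seen. miR-205-5p itself averaged 115000 ± 20300 CPM in healthy and 106200 ± 6990 in hyperplastic skin (SD, n = 5 each). In papilloma it averaged 89780 ± 23600 and in cSCC 71360 ± 27500, so its lower mean in tumours also enters the ratios. Per 10000 reads of miR-205-5p there were 1.63, 2.41, 1.5, 3.01 and 2.07 reads of miR-135b-5p in healthy libraries 2, 3, 4, 5 and 7. Hyperplastic libraries 1, 2, 5, 7 and 8 had 0.95, 1.27, 1.51, 1.85 and 2.58. Papillomas 1, 3, 4, 5 and 6 had 3.78, 1.79, 32.1, 15 and 19.5, so papilloma 3 again lay with the skin libraries.

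Carcinomas 1, 2, 3, 4 and 6 had 175, 147, 36.2, 539 and 66.6 reads of miR-135b-5p per 10000 of miR-205-5p, all above the papillomas. The mean log2 ratio was higher in papilloma than in hyperplastic skin by 2.57 (exact permutation test, two-sided, p = 0.0238) and than in healthy skin by 2.15 (p = 0.0397). Neither passed after adjustment over the 6 ratio tests (adjusted p = 0.119 for both, where the smallest raw p that 5 against 5 libraries allow is 0.00794). The sizes lay close to the fold changes of the fit of all miRNAs. In bulk tissue, a different share of cells that make the miRNA and a different amount per cell cannot be told apart.

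**Figure D3:**
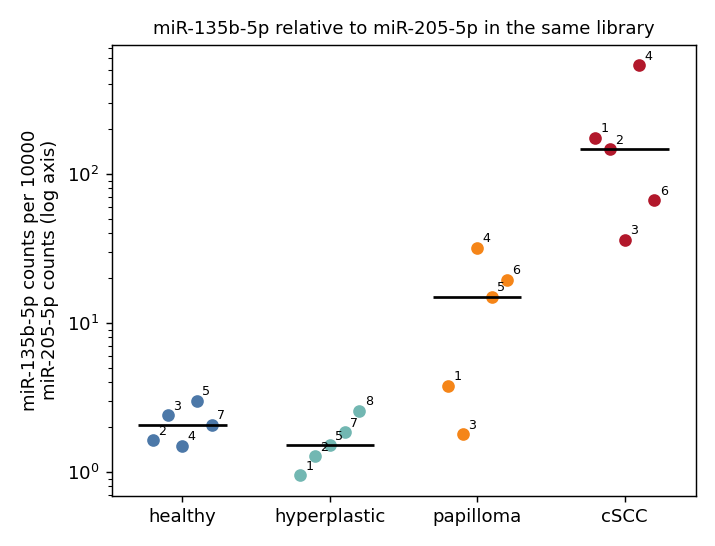
Reads of miR-135b-5p per 10000 reads of miR-205-5p in the same library (log axis), by group; points are libraries with their number and bars are medians. Carcinomas had 36.2 to 539, papillomas 1.79 to 32.1, and both skin groups at most 3.01.

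The other arm of the same hairpin, mmu-miR-135b-3p, was rare. It had 2, 3, 0, 0 and 1 reads in healthy libraries 2, 3, 4, 5 and 7, and in hyperplastic skin a single read, in library 8. Papillomas 1, 3, 4, 5 and 6 had 4, 2, 5, 7 and 2 reads, and carcinomas 1, 2, 3, 4 and 6 had 19, 28, 11, 36 and 5. Each papilloma and each carcinoma thus had more reads than any hyperplastic library, although the tumour libraries had lower total counts. Among all 850 miRNAs, 21.9% had no overlap between papilloma and hyperplastic skin.

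With 20 reads in papilloma and 1 in hyperplastic skin, the ratio per scaled library size was 37.4, with a counting interval of 5.98 to 1550 (95%, exact Poisson, counting error only). The adjusted p was 0.00134 (edgeR), for an arm that passed the low-count filter through tumour reads, those of papilloma 4 among them. The entry of this arm into the test thus rested in part on a library of the tested papilloma group. With only the libraries of the 2 groups compared, it failed that filter and was not tested, against hyperplastic or healthy skin. Against healthy skin, with 6 reads, the ratio was 4.79 (1.86 to 14.6; adjusted p = 0.0247). That call ended without any one of papilloma 4, papilloma 5, healthy 4, healthy 5 or healthy 7, in which the adjusted p ran from 0.0526 to 0.0962. It also ended with no low-count filter (0.0814) and with the replicate number as a block (0.0553).

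In cSCC, with 99 reads, the ratio to papilloma was 4.58 (2.81 to 7.83), given with no test. The 3p arm made up 0.685% of the reads of both arms in cSCC (95% exact binomial interval 0.557 to 0.834, 99 of 14444 reads), 1.68% in papilloma (1.03 to 2.58, 20 of 1192) and 1.49% in healthy skin (0.548 to 3.21, 6 of 403). In hyperplastic skin it was 0.275% (0.00697 to 1.53, 1 of 363). The 5p arm thus made up most reads of the hairpin in each group. Reads without molecular identifiers are not independent molecules, so these intervals cover counting error alone. Over the 20 libraries the log2 levels of both arms had a Pearson r of 0.949 and a Spearman rho of 0.904 (0.916 for r without the 2 libraries farthest from the median), as a description of arms that share a hairpin and a library.

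miR-135a-5p, which shares all but 1 base with the matching stretch of the Mir135b hairpin, did not follow miR-135b-5p. In healthy libraries 2, 3, 4, 5 and 7 it stood at 9.02, 16.8, 22.1, 10.8 and 5.52 CPM. In hyperplastic libraries 1, 2, 5, 7 and 8 it stood at 19.9, 27.9, 25.0, 12.3 and 17.3 CPM. Papillomas 1, 3, 4, 5 and 6 had 13.9, 57.1, 8.61, 17.4 and 25.5 CPM. Papilloma 3, the lowest in miR-135b-5p, was here the highest of all 20 libraries, and papilloma 4, the highest papilloma in miR-135b-5p, was the lowest papilloma.

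Carcinomas 1, 2, 3, 4 and 6 had 8.58, 8.44, 11.3, 17.4 and 17.1 CPM of miR-135a-5p, inside the healthy range in each case. No comparison without cSCC passed the test for miR-135a-5p (edgeR). Its log2 fold change was 0.67 ± 0.42 (SE, adjusted p = 0.663) for hyperplastic and 0.94 ± 0.42 (adjusted p = 0.073) for papilloma against healthy skin. For papilloma against hyperplastic skin it was 0.27 ± 0.42 (adjusted p = 0.647), which became -0.37 without papilloma 3. Scaled on total miRNA counts, the difference between papilloma and healthy skin was 1.51 (adjusted p = 0.0116). In cSCC it was -0.04 ± 0.43 relative to healthy skin and -0.97 ± 0.43 relative to papilloma, with no test.

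**Figure D4:**
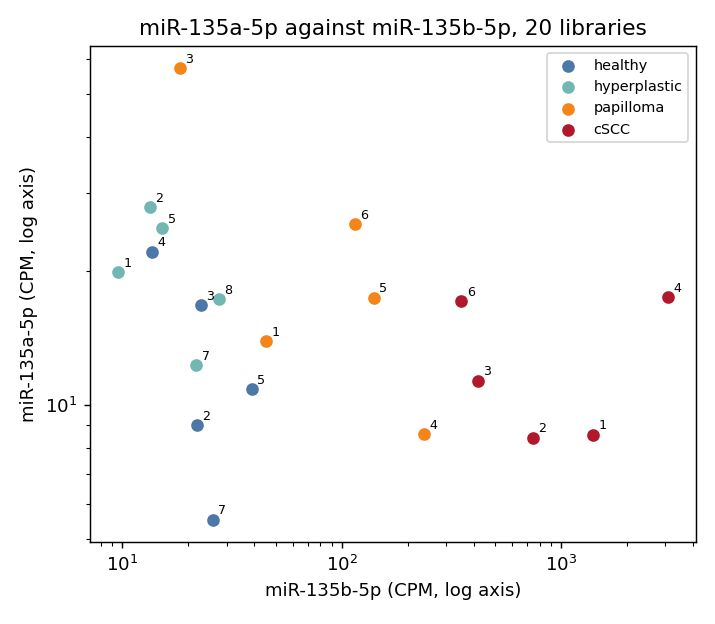
Level of miR-135a-5p (vertical axis) against that of miR-135b-5p (horizontal axis) in the 20 libraries, both as CPM on log axes, coloured by group and numbered by library. Carcinomas lie far to the right at miR-135a-5p levels of 8.44 to 17.4 CPM; papilloma 3 stands alone at 57.1 CPM.

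The share of miR-135b-5p among the reads of both 5p members was also computed. With sequences this alike and the assignment of reads unknown, some reads may have been exchanged between the members, in this share and in the ratios below, and this was not tested. The share ran from 38.2% to 82.4% in healthy skin, from 32.4% to 63.9% in hyperplastic skin and from 24.3% (papilloma 3) to 96.5% (papilloma 4) in papilloma. In cSCC it ran from 95.4% to 99.4%. The exact binomial intervals of those extreme papillomas were 18.3 to 31.2 and 94.3 to 98.0. Papillomas thus reached from below the lowest skin library into the range of the carcinomas.

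For the log2 ratio of the 2 members, no comparison without cSCC passed an exact permutation test after adjustment over the 6 ratio tests. The difference was -1.29 for hyperplastic against healthy skin (adjusted p = 0.143), 2.27 for papilloma against hyperplastic skin (adjusted p = 0.143) and 0.99 for papilloma against healthy skin (adjusted p = 0.444). In cSCC, reads of miR-135a-5p came to 0.566% to 4.87% of those of miR-135b-5p. Over the 20 libraries the levels of the 2 members had a Pearson r of -0.346 and a Spearman rho of -0.49 (r of -0.375 without the 2 libraries farthest from the median), as a description.

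The 3p arms of miR-135a were at the edge of detection. miR-135a-2-3p had at most 7 reads and miR-135a-1-3p at most 6 in any library, both failed the low-count filter, and each had libraries at 0 in all 4 groups. The highest count of miR-135a-2-3p was in cSCC 1 and that of miR-135a-1-3p in hyperplastic 2. No fold change is given for them.

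Among the abundant miRNAs, the 6 whose log2 levels were most like those of miR-135b-5p over the 20 libraries were miR-467a-3p (Pearson r 0.905, Spearman rho 0.752), miR-5109 (0.884, 0.85), miR-494-3p (0.883, 0.707), miR-21-3p (0.858, 0.836), miR-5102 (0.849, 0.931) and miR-5115 (0.845, 0.788). These correlations describe libraries that share a group and a depth, and are given with no p. miR-467a-3p, which belongs to a large cluster in an intron of Sfmbt2 and has many near copies, so that its reads are uncertain, averaged 72.6 ± 8.35 CPM in healthy skin (SD, n = 5 in each group), against 89.3 ± 18.9 among papillomas and 319.3 ± 190 among carcinomas. Its highest carcinoma was again cSCC 4 (585.2 CPM) and its lowest cSCC 3 (95.9 CPM). Without cSCC 4 and cSCC 1, the libraries farthest from the median of miR-135b-5p, the 6 Pearson coefficients were 0.805 to 0.877. They were 0.602 to 0.859 without any cSCC library, and 0.464 to 0.684 over the 20 libraries with group means removed.

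The most opposite were miR-204-5p, whose gene lies within Trpm3 (r -0.947), miR-99a-3p (r -0.919) and miR-203-3p, which promotes keratinocyte differentiation (r -0.906). miR-204-5p stood at 883.7 ± 344 CPM in healthy skin, 267.7 ± 108 in papilloma and 54.8 ± 11.3 in cSCC. Its lowest papilloma (124.5 CPM) was papilloma 4 and its lowest carcinoma (38.0 CPM) was cSCC 4, the libraries with the most miR-135b-5p in each tumour group. Its highest papilloma (401.4 CPM) was papilloma 3, the one with the least miR-135b-5p. With group means removed, the r of miR-204-5p was -0.613.

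Once group means were removed, the order of likeness changed, and miR-221-3p, which restrains the cell cycle inhibitor p27, came first (r 0.751), ahead of miR-467a-3p (0.684), miR-669a-3p (0.603) and its own cluster partner miR-222-3p (0.593). In carcinomas 1, 2, 3, 4 and 6, miR-221-3p stood at 1960, 2251, 1393, 4764 and 1004 CPM, with cSCC 4 the highest and cSCC 6 the lowest, as for miR-135b-5p. With group means kept, the r of miR-221-3p was 0.483 over the 20 libraries and -0.106 over the 15 without cSCC. Neither is of the same kind as the 0.751.

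**Figure D5:**
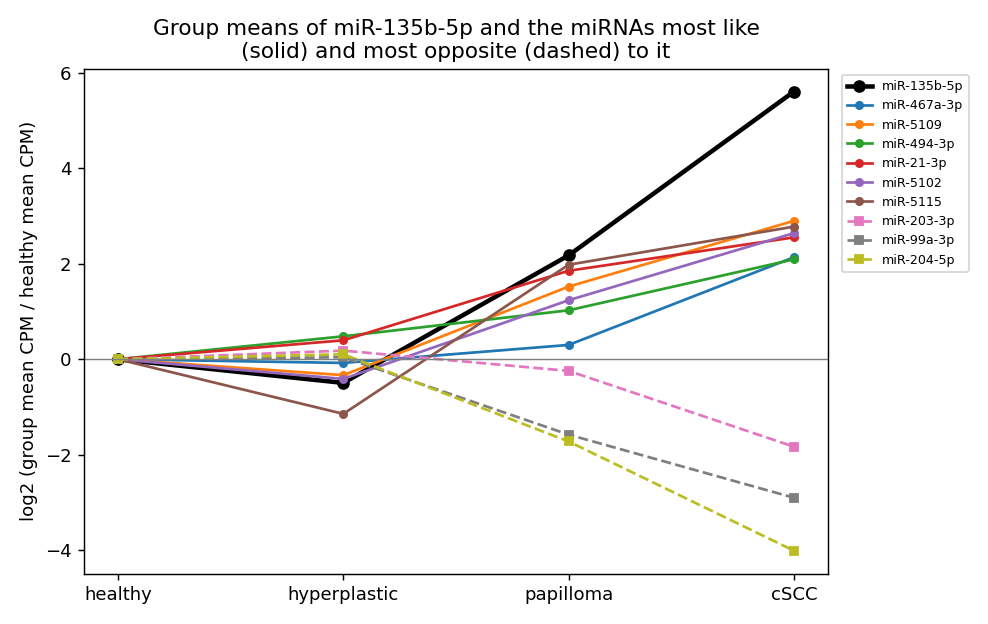
Group means of miR-135b-5p (black) and of the 6 miRNAs most like it (solid lines) and the 3 most opposite (dashed lines), as log2 of the mean CPM relative to the healthy mean. The line of miR-135b-5p climbs most from papilloma to cSCC, and that of miR-204-5p falls deepest.

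A list of other miRNAs known as raised in carcinomas held 45 arms, of which 41 were tested. Against hyperplastic skin, 8 rose in papilloma, 1 fell and 32 did not pass (median log2 fold change 0.14, against 0.27 over all 850). There 38.4% of all miRNAs were called, 21.3% higher and 17.1% lower. In cSCC against papilloma, 8 rose, 0 fell and 33 did not pass (median 0.17, against -0.12 over all), where 11.5% of all were called, 6.82% higher and 4.71% lower. Named risers in papilloma were miR-7a-5p (log2 1.95 ± 0.43, adjusted p = 0.00167, or 2.5 among abundant miRNAs), from an intron of Hnrnpk, and miR-21-5p, a repressor of Pdcd4 (1.84 ± 0.34, adjusted p = 0.000529, or 2.37).

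From papilloma to cSCC, miR-221-3p rose by 1.63 ± 0.38 (adjusted p = 0.00595) and miR-210-5p, an arm of the hypoxia miRNA, by 1.69 ± 0.43 (adjusted p = 0.0117). miR-31-5p rose by 1.92 ± 0.55 (adjusted p = 0.0225), a call that ended without papilloma 3 (adjusted p = 0.0673) or cSCC 4 (0.0501). Among abundant miRNAs the same list rose in 6 and fell in 0 of 27 in papilloma against hyperplastic skin, and rose in 9 and fell in 0 of 27 in cSCC against papilloma. Of all 294 abundant miRNAs 28.2% and 26.2% were called in these comparisons.

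Some markers of the cell types in the biopsies differed between the groups that differed in miR-135b-5p, and their part in its values was not tested. The 14 leukocyte arms summed to 12060 to 24970 CPM in hyperplastic skin, 20930 to 38830 in healthy skin, 16740 to 61940 in papilloma and 49270 to 112200 in cSCC. miR-223-3p made up most of each sum, such as 104200 of 112200 CPM in cSCC 6 and 57740 of 61940 in papilloma 6. Against healthy skin 1 of 12 tested arms rose and 5 fell in papilloma, and 2 rose and 2 fell in cSCC. Against hyperplastic skin 5 rose and 3 fell in cSCC. Of all 850 miRNAs, 380, 404 and 382 were called in these comparisons, in either direction. Among abundant miRNAs the counts were 2 and 0, 3 and 2, and 4 and 1 of 7 (151, 184 and 148 of all 294 called). In cSCC against papilloma 3 of 12 tested leukocyte arms rose and 0 fell, where 6.82% of all miRNAs rose and 4.71% fell. The risers included miR-147-3p (2.09 ± 0.43, adjusted p = 0.00202, edgeR) and miR-142-5p (1.65 ± 0.35, adjusted p = 0.00239). In papilloma against hyperplastic skin 2 of 12 rose and 2 fell, near the shares of all miRNAs (21.3% and 17.1%), and among abundant miRNAs 2 of 7 rose and 0 fell. The highest leukocyte sum was in cSCC 6, the carcinoma with the least miR-135b-5p, and the lowest of the carcinomas was in cSCC 1.

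The 15 striated muscle arms summed to 22250 to 83010 CPM in healthy skin, 17870 to 55420 in hyperplastic skin, 2261 to 9874 in papilloma and 1709 to 4015 in cSCC. Papilloma 3, low in miR-135b-5p, held the highest muscle sum of the papillomas. The carcinoma with the most miR-135b-5p, cSCC 4, held the highest muscle sum of the carcinomas (4015 CPM). In papilloma against hyperplastic skin 7 of 10 tested muscle arms fell and 2 rose, against 17.1% and 21.3% of all miRNAs. Among abundant miRNAs 7 of 7 fell. miR-133a-3p stood at -2.80 ± 0.43 (adjusted p = 0.000166, edgeR), or -2.20 among abundant miRNAs. In cSCC against papilloma 1 of 10 fell and 0 rose, and among abundant miRNAs 3 of 7 fell. For fibroblasts and smooth muscle, 10 arms summed to 97340 to 189300 CPM in healthy skin, 74150 to 160900 in hyperplastic skin, 34910 to 54500 in papilloma and 23460 to 50410 in cSCC. Of these 6 of 10 fell and 0 rose in papilloma against hyperplastic skin, where 17.1% of all miRNAs fell, but 3 of 9 among abundant miRNAs. One that fell was miR-199b-5p (-1.38 ± 0.28, adjusted p = 0.000798, edgeR, or -0.81 among abundant miRNAs). In this list 0 of 10 passed from papilloma to cSCC by edgeR (1 at an unadjusted p under 0.05, 0 by DESeq2, 1 of 9 among abundant miRNAs).

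The counts for keratinocyte arms, from the cells in which these tumours arise, depended on the scaling. The 14 arms summed to 157000 to 254100 CPM in healthy skin, 176400 to 224000 in hyperplastic skin, 108600 to 212400 in papilloma and 76980 to 145300 in cSCC. In papilloma against hyperplastic skin 0 of 13 tested rose and 3 fell (median -0.24), whereas among abundant miRNAs 0 of 12 passed (edgeR, 2 at an unadjusted p under 0.05, and 3 of 13 by DESeq2 on all miRNAs), with a median of 0.30. Of all 850 miRNAs 21.3% rose and 17.1% fell there, and 28.2% of the 294 abundant ones were called. Against healthy skin 0 of 13 rose and 3 fell in papilloma and 0 rose and 5 fell in cSCC. Of all 850 miRNAs, 380 and 404 were called in these comparisons, in either direction. Among abundant miRNAs the keratinocyte counts were 2 risers and 0 fallers of 12 in papilloma and 3 of each in cSCC. There 151 and 184 of all 294 were called. In cSCC against hyperplastic skin the keratinocyte counts were again 3 of each (148 of all 294 called), in place of 0 and 3 of 13 (382 of all 850 called). In cSCC against papilloma, where 4.71% of all miRNAs fell, 0 of 13 rose and 2 fell, both arms of miR-203. Of these, miR-203-3p fell by a log2 of 1.59 (from 63780 ± 15500 to 21220 ± 6260 CPM, SD, n = 5, adjusted p = 0.000279, edgeR).

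The 4 arms of miR-204 and miR-211, used as melanocyte markers, summed to 688.8 to 2213 CPM in healthy skin, 958 to 2739 in hyperplastic skin, 222 to 873.8 in papilloma and 68.9 to 150.3 in cSCC. Of 3 tested, 2 fell in papilloma against hyperplastic skin, where 17.1% of all miRNAs fell, and 2 in cSCC against papilloma, where 4.71% did. Among abundant miRNAs these were 1 of 2 (miR-211-5p had an adjusted p of 0.12, edgeR) and 2 of 2. The 12 neural arms summed to at most 343.3 CPM in any library. Of 7 tested, 1 fell and 0 rose in papilloma against hyperplastic skin, a call on miR-128-3p that ended among abundant miRNAs (adjusted p = 0.612, edgeR), and 0 passed in cSCC against papilloma by edgeR (0 at an unadjusted p under 0.05, 0 by DESeq2). No list had a member at 0 in every library of a group.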

How the data were processed

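Per the labels' protocols, RNA was isolated with miRNeasy, and NEBNext small RNA libraries for SOLiD sequencing were selected by size on gels. The authors deposited raw read counts for each feature in each library, with no normalization. The build is mm9, per the submitters' processing notes. Aligner, counter and annotation release: not given in the sources used here. Columns were matched to samples by title.

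Mature miRNA counts were filtered with filterByExpr by group (at least 15 counts in all, and a level equal to 10 counts at the median library size in at least 5 libraries). They were scaled by TMM (factors 0.637 to 1.67) and fitted in 1 model over 20 libraries with edgeR 4.0.16 (R 4.3.3, limma 3.58.1, quasi-likelihood F test, two-sided, Benjamini-Hochberg over 850 miRNAs, threshold 0.05). SE were derived from the F statistic. DESeq2 1.42.0 was an alternative. Correlations used log2 CPM with a prior count of 2, or for the pairs of family members log2(CPM + 1). The script was tested on simulated counts. No 2 libraries of a group agreed within sampling noise (smallest chi-square per degree of freedom 81.0 over 40 pairs).

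Members and the 7 miRNA lists were chosen with earlier results of these data known. Named were all family members, the 6 most like and 3 most opposite miRNAs, up to 3 called members of each list with at least 50 CPM in 1 group, and the next largest increases in cSCC against healthy skin. miR-221-3p, miR-669a-3p and miR-222-3p as correlates within groups were named after their values were seen.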

Additional observations from a re-analysis of the deposited data

Results flagged for a closer look

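Among the 20 sets of 5 libraries examined (5 members in 4 groups), 1 held a library far from the others: miR-135b-3p in hyperplastic skin, at 0.32 CPM in library 8 and 0 in the other 4. That value is a single read. For normally distributed values chance flags about 1 in 20 such sets. That rate does not hold here, since a set in which 1 library alone has reads is always flagged.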

How the results depend on the processing

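For miR-135b-5p, all 102 planned settings over the 6 comparisons kept the direction and, where tested, the side of the threshold. With 1 library left out, its log2 fold change ran from -0.80 to -0.37 for hyperplastic against healthy skin, 1.5 to 2.42 for papilloma against healthy, 2.12 to 2.92 for papilloma against hyperplastic, 4.77 to 5.84 for cSCC against healthy, 5.25 to 6.41 for cSCC against hyperplastic and 2.83 to 4.02 for cSCC against papilloma. As ratios, chosen after seeing the data, the papilloma calls ended: 2.15 and 2.57 over miR-205-5p (adjusted p = 0.119 for both), 0.99 and 2.27 over miR-135a-5p (0.444 and 0.143), against healthy and hyperplastic skin in that order. Far fewer values enter these tests than the model of all miRNAs, and the size against healthy skin was smaller over miR-135a-5p (0.99) than in that model (2.17). Why the calls ended was not tested.

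For miR-135a-5p in papilloma against hyperplastic skin the sign turned with no low-count filter (-0.12), with the replicate block (-0.64) and without papilloma 3 (-0.37). The cause was not tested. The other arms had 2 calls in the 3 comparisons without cSCC, both of miR-135b-3p in papilloma, an arm that passed the low-count filter through tumour reads. Of all 850 miRNAs, 380 were called in papilloma against healthy skin and 326 against hyperplastic skin. Calls of the other arms numbered 1 with no low-count filter, 0 among abundant miRNAs (where none is tested), 1 with the replicate block, 0 with only the 2 groups compared (where miR-135b-3p failed the filter) and 1 to 2 with 1 library left out.

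The abundant set, with 294 in place of 850 miRNAs tested and a scaling of its own, gave fewer calls: 151 for papilloma and 184 for cSCC against healthy skin, and 83 and 148 against hyperplastic skin, in place of 380, 404, 326 and 382. As a share, calls came to 28.2% in place of 38.4% for papilloma against hyperplastic skin, but 26.2% in place of 11.5% for cSCC against papilloma. The replicate block gave 4 in place of 0 for hyperplastic against healthy skin, 240 for papilloma against healthy, and 82 and 190 for papilloma and cSCC against hyperplastic skin. With 1 library left out the count was 0 to 2 for hyperplastic against healthy skin (2 without healthy 4) and 55 to 90 for cSCC against papilloma, in place of 98, with 64 without papilloma 3 and 55 without cSCC 4. Same-numbered samples were not visibly alike: of 17 same-numbered pairs, 2 had deviations correlated above 0.1 (median r -0.01, range -0.16 to 0.21). These correlations cannot show whether same-numbered samples share an animal, which the labels do not say. Arms under 10 reads are limited by counting error.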
